A study of Mus musculus with 8 samples.

Results

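The 10 genes described here encode receptors for bone morphogenetic proteins (BMPs) and Smad proteins of their pathway: Bmpr1a, Bmpr1b, Bmpr2, Acvr1, Smad1, Smad4, Smad5, Smad6, Smad7 and Smad9. They were taken by symbol and make up 10 of 53507 gene rows. All 10 passed the filter on low counts, among 19936 genes tested. RNA was sequenced from mouse brain cells that carried the tdTomato reporter and bear the label progenitor, in 8 libraries, 2 in each of 4 groups. The embryonic groups were E13 and E15 cells labelled wild type. The normoxia group was P12 cells from pups kept in normal air. The hypoxia group was P12 cells from pups kept at 10% oxygen from P3 to P11, so these cells were taken 1 day after the return to normal air. Foster dams of the hypoxic and control litters were swapped while the exposure lasted. Each library was made from 400 pg of RNA. The strain, the driver of the tdTomato reporter, and whether animals were pooled are not given in the labels. Nothing in them says that the libraries of a group came from separate animals, so p-values measure the spread between these libraries, which may be technical. That spread is estimated over all 8 libraries together, so p-values between the P12 groups also rest on the embryonic libraries. Those of E15 against E13 likewise rest on the P12 libraries.

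A BMP dimer assembles a complex of type I and type II serine/threonine kinase receptors at the cell surface. Bmpr1a (ALK3), Bmpr1b (ALK6) and Acvr1 (ALK2) are type I receptors, and Bmpr2 is the type II receptor that phosphorylates them. Active type I receptors phosphorylate the receptor-regulated Smads (R-Smads) of this branch, Smad1, Smad5 and Smad9 (also called Smad8), which join the common partner Smad4 and enter the nucleus. Smad6 and Smad7 are inhibitory Smads, induced by the pathway itself. In the developing brain the pathway is known for dorsal patterning, for promoting astrocyte formation from neural stem cells and for holding back the oligodendrocyte lineage.

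Libraries held 36252027 to 47084796 counts in gene rows. The P12 libraries were the less even ones: 11695 to 16468 genes had at least 10 counts, against 17520 to 18318 in the embryo, and the 100 most abundant genes took 26.7% to 34.5% of counts, against 14.2% to 14.9%. The correlation of log2(CPM + 1) between the libraries of a group was 0.98 for E13, 0.99 for E15, 0.82 for normoxia and 0.70 for hypoxia, where CPM is the count scaled to a common library size after TMM normalisation. The 9 radial glia and progenitor markers summed to 254 to 342 CPM in the embryo and 3931 to 5249 CPM at P12, and Sox2, Hes5 and Pax6 were present in every library. Slc1a3, which astrocytes also express, gave 2412 to 3435 CPM of each P12 sum. Vim had 199 and 208 CPM at E13, 69.5 and 69.2 CPM at E15 and 22.1 to 140.0 CPM at P12, and Nes had 7.89 to 22.3 CPM in the embryo, 6.35 and 20.0 CPM in normoxia and 49.4 and 70.5 CPM in hypoxia. Neuronal markers summed to 2560 to 2929 CPM in the embryo, with Tubb3 at 749 to 994 and Map2 at 782 to 898 CPM. Astrocyte markers summed to 7826 to 10295 CPM at P12, with Gfap at 646.5 to 1176 CPM, against 10.8 to 40.2 CPM in the embryo. The label progenitor therefore covers libraries rich in neuronal RNA in the embryo and in astrocyte RNA at P12. In such bulk samples fewer cells of a type and less RNA per cell cannot be told apart.

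The promoters of 3 members are shown because these genes have the widest differences between P12 libraries, and because 1 of them holds the palindromic Smad element. Sequences are RefSeq promoters on GRCm38.p6, printed 5′ to 3′ on the strand of the gene. Capitals mark GTCTAGAC, a palindrome that Smad proteins bind in vitro, or GGCGCC, a GC-rich site bound by the Smads of the BMP branch, both searched on both strands. Bmpr1b is shown over the 250 bases before its first RefSeq start (chr3:141982265-141982514, minus strand), which lies inside the gene and covers 0 exonic bases. Smad6 is shown from 250 bases before to 10 bases after its start (chr9:64022050-64022309, minus strand). Smad9 is shown over the 250 bases before its start (chr3:54755332-54755581, plus strand).
Bmpr1b: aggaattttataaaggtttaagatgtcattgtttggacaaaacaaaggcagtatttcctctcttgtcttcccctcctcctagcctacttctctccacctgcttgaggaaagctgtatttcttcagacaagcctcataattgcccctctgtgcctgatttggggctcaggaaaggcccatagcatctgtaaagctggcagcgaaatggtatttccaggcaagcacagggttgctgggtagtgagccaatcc
Smad6: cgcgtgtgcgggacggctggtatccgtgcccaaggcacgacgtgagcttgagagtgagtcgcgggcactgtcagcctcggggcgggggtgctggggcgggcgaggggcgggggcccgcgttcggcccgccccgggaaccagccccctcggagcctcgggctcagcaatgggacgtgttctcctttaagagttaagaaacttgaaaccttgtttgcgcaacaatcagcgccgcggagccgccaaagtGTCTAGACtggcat
Smad9: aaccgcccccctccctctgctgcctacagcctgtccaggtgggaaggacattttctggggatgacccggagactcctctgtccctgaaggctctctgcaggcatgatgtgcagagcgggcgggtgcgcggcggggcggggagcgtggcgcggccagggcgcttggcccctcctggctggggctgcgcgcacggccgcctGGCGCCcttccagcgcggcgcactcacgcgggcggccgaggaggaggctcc
The capitals in Smad6 begin 4 bases before the start and run across it. Those in Smad9 begin 51 bases before its start. The Bmpr1b stretch has neither motif and has 2 overlapping matches, 1 on each strand, to TATAAA near its distal end.

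Of all 27025 RefSeq promoters, 1 per gene, in windows from 250 bases before to 50 after the start, 57 (0.211%) hold GTCTAGAC, 3233 hold GGCGCC and 3827 (14.2%) hold TATAAA. Of the 10 members 8 were in the table, and the windows of Bmpr1a, Bmpr2, Smad5 and Smad9 hold GGCGCC. The Bmpr1a window has a GC content of 79.3% and 48 CG dinucleotides, and that of Acvr1 has 83.7% and 51. The first Bmpr1b window, at 48.3% and 5 CG dinucleotides, is the least GC-rich of the members and lies below the median of all promoters, 52.7% and 7. A match to a motif is a description of the letters and shows no binding.

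**Figure D1:**
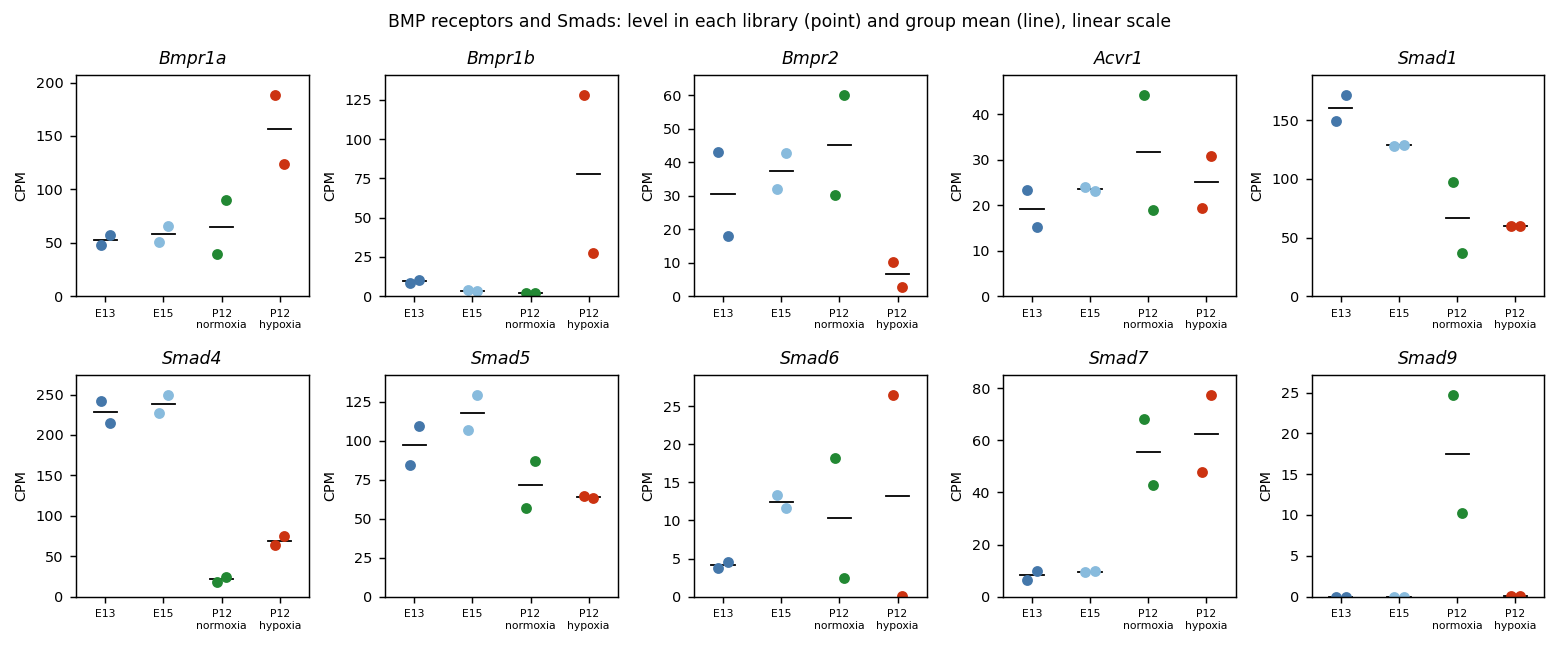
Level of each gene in CPM (vertical axes, linear, each with its own range) in the 8 libraries by group (horizontal axis); points are libraries and lines are means of 2. Smad4 is at 214 to 249 CPM in the embryo and 18.1 to 74.7 CPM at P12, Smad7 is high in all 4 P12 libraries, Smad9 is above 1 CPM in the normoxia libraries alone, and Bmpr1b is highest in hypoxia.

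Among the type I receptors, Bmpr1b was the member that stood apart after hypoxia. Its levels were 8.26 and 10.5 CPM at E13, 3.66 and 3.17 CPM at E15, 2.22 and 2.02 CPM in normoxia, and 128 and 27.6 CPM in hypoxia. The hypoxia libraries lay above all other libraries, and no neighbouring pair of groups overlapped in the order hypoxia, E13, E15, normoxia. Against the embryonic libraries Bmpr1b rose in hypoxia (log2 fold change 3.78 ± 0.70 SE, adjusted p = 0.0144, edgeR's quasi-likelihood test), and leaving out any 1 of the 4 embryonic libraries ended that call (highest adjusted p = 0.0977 over 15 alternatives). The size was smaller without hypoxia replicate 1, with a log2 fold change of 2.29 against the embryo and 3.81 against normoxia. The median of all tested genes moved as well in that fit, from -0.43 to -1.68 against the embryo and from 0 to -0.32 against normoxia. Hypoxia against normoxia gave the largest log2 fold change of the members for which both groups were above the limit of 3 counts a library, 5.20 ± 0.98 SE, but its edgeR adjusted p of 0.0558 missed the threshold of 0.05. DESeq2 called it (adjusted p = 1.68e-10), as did 3 other alternatives: the stricter filter of 5 CPM in 2 libraries (adjusted p = 0.043) and the fits without hypoxia replicate 1 (adjusted p = 0.0177) or replicate 2 (adjusted p = 0.0123), by edgeR. Bmpr1b, a gene of 5962 exonic bases, lies on GRCm38 at chr3:141837136-142169425, minus strand.

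Bmpr1a, the broadly expressed type I receptor of neural progenitors, had 48.4 and 57.5 CPM at E13, 51.2 and 66.0 CPM at E15, 39.9 and 90.2 CPM in normoxia, and 189 and 124 CPM in hypoxia. The hypoxia libraries were again the 2 highest, while the normoxia libraries spanned the embryonic range. Against the embryo Bmpr1a rose in hypoxia by a log2 fold change of 1.49 ± 0.42 SE (edgeR adjusted p = 0.0488), a call that 7 of 15 alternatives kept. The fits that lost it include those without any 1 embryonic library, without hypoxia replicate 1, without the low-count filter and by limma-voom (highest adjusted p = 0.191). Against normoxia the log2 fold change was 1.26 ± 0.51 SE (edgeR adjusted p = 0.274), past the threshold by DESeq2 alone of the alternatives (adjusted p = 0.0204). The gene spans chr14:34410734-34503341 (minus strand). An antisense transcript, Gm17110, shares 290 of its 6351 exonic bases and had 0 to 26 counts a library, and reads over the shared bases cannot be told apart where the strand setting is not stated.

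Acvr1, the type I receptor whose gain of function is known from heterotopic bone formation, had 23.3 and 15.2 CPM at E13, 24.1 and 23.1 CPM at E15, 44.3 and 19.0 CPM in normoxia, and 19.4 and 30.9 CPM in hypoxia. All neighbouring groups overlapped, and it passed no test in any of the 4 comparisons or 15 alternatives. Its hypoxia-to-normoxia log2 fold change was -0.33 ± 0.68 SE (edgeR adjusted p = 0.926), smaller than its own SE. Acvr1 lies at chr2:58388644-58567157, minus strand.

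Compared per length, the type I receptors shifted in their make-up. Bmpr1b supplied 10.0% and 12.6% of the summed type I receptor level (in RPKM, which is CPM per kilobase of exon) at E13, 4.50% and 3.38% at E15, 2.36% and 1.83% in normoxia, and 38.9% and 15.2% in hypoxia. These shares do not depend on library scaling. The summed type I level was 13.7 to 15.7 RPKM in the embryo, 15.8 and 18.5 RPKM in normoxia, and 55.2 and 30.5 RPKM in hypoxia. Acvr1 was the most abundant type I receptor in normoxia replicate 1, at 58.0% of the sum, and held 7.28% to 36.5% in the other libraries. Bmpr1a was the most abundant in all 7 others.

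Bmpr2, the BMP-specific type II receptor, had its lowest values in hypoxia, though no difference passed edgeR's test on all 8 libraries. It had 43.1 and 18.1 CPM at E13, 32.0 and 42.8 CPM at E15, 30.3 and 60.1 CPM in normoxia, and 10.3 and 2.88 CPM in hypoxia. The hypoxia libraries were the lowest of the 8, and the other groups overlapped. The log2 fold change was -2.77 ± 0.91 SE against normoxia (edgeR adjusted p = 0.213) and -2.35 ± 0.83 SE against the embryo (edgeR adjusted p = 0.0860), so neither passed. DESeq2 called both (adjusted p = 0.0091 and 0.00522), and edgeR called the second without hypoxia replicate 1 (-3.55, adjusted p = 0.0372). Per length, Bmpr2 averaged 1.70 RPKM at E13, 2.08 at E15, 2.51 in normoxia and 0.367 in hypoxia, below the Bmpr1a mean in every group. Bmpr2 lies at chr1:59763400-59879014 (plus strand) and has 17983 exonic bases.

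**Figure D2:**
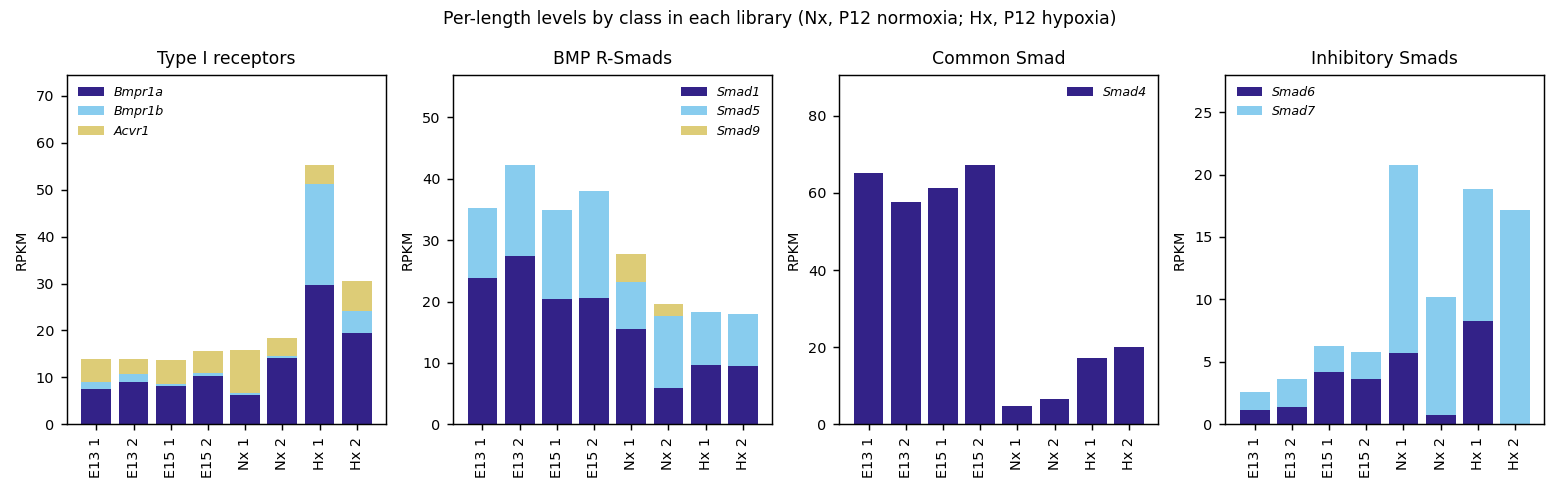
Level per length in RPKM (vertical axes, from 0) in each of the 8 libraries (horizontal axis), stacked by gene within type I receptors, BMP R-Smads, the common Smad4 and the inhibitory Smads. Bmpr1b takes 38.9% and 15.2% of the type I bar in hypoxia, Smad9 is visible in the normoxia bars alone, and the Smad7 part of the inhibitory bar is larger in all P12 libraries than in the embryo.

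Of the R-Smads, Smad9 was read above the limit of 3 counts a library in normoxia alone. It had 0 counts in all 4 embryonic libraries, 778 and 316 counts (24.7 and 10.3 CPM) in normoxia, and 3 and 2 counts (0.101 and 0.0740 CPM) in hypoxia. A count of 0 allows up to 3 counts, 0.0482 to 0.0537 CPM in the embryonic libraries, and limits and intervals here cover counting error only. Smad9 passed the low-count filter through the normoxia libraries alone, so a difference was built into its being tested. The call of normoxic P12 above the embryo (edgeR adjusted p = 0.00840) therefore adds no support. As a description, Smad9 was at least 336-fold higher in normoxia than in the embryo, taking 3 counts in each embryonic library as the floor. In hypoxia it was at or under that floor, as in the embryo, and no fold is given. Hypoxia held 5 counts over both libraries against 1094 in normoxia, a ratio of normoxia to hypoxia of 199.8 (95% counting interval 85.3 to 617). The fitted log2 fold change of -7.60 ± 1.33 SE had an edgeR adjusted p of 0.0943, so the difference between the P12 groups did not pass. DESeq2 called it (adjusted p = 1.34e-06). Smad9 was tested only through its normoxia counts here too, so neither p-value is support for a difference. Smad9 lies at chr3:54755582-54801257, plus strand.

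Neuronal markers differed between the P12 groups too: Stmn2, Snap25, Rbfox3 and Syt1, 4 of 7 in the list, were lower in both hypoxia libraries than in both normoxia libraries, and Map2 was higher. Over all tested genes 20.1% were lower and 13.1% higher in that way. Syt1, a synaptic vesicle calcium sensor, had 130 and 58.6 CPM in normoxia and 0 and 0.111 CPM in hypoxia. The summed level of the list was 502 and 539 CPM in normoxia and 267 and 686 CPM in hypoxia. In the embryo, where Smad9 was not detected, that sum was 2560 to 2929 CPM, but the genes of the list were split. Snap25 and Syt1 were higher in both normoxia libraries than in the embryo, where Syt1 had 0.194 to 14.3 CPM. Tubb3, Dcx, Rbfox3 and Map2 were lower in both normoxia libraries, and Stmn2 overlapped. The part of neurons in the Smad9 difference was not tested.

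Smad1 and Smad5, the R-Smads present throughout, had lower means at P12, differences that did not pass edgeR's test on all 8 libraries. Smad1 had 149 and 172 CPM at E13, 128 and 129 CPM at E15, 97.1 and 37.0 CPM in normoxia, and 60.3 and 59.7 CPM in hypoxia. All 4 P12 libraries lay below all 4 embryonic ones, and the P12 groups overlapped. The log2 fold change from the embryo was -1.10 ± 0.44 SE in normoxia (edgeR adjusted p = 0.145) and -1.26 ± 0.45 SE in hypoxia (edgeR adjusted p = 0.0873), and neither passed. The hypoxia difference passed in 3 of 15 alternatives, with only the compared groups (adjusted p = 0.019) and without normoxia replicate 1 (adjusted p = 0.0262) or 2 (adjusted p = 0.0176). The normoxia difference passed without normoxia replicate 1 (adjusted p = 0.0366), where it reached -2.10, by edgeR in each case. Smad1 lies at chr8:79338395-79399518, minus strand.

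Smad5 had 84.5 and 109.5 CPM at E13, 107 and 129 CPM at E15, 56.5 and 86.9 CPM in normoxia, and 64.6 and 63.1 CPM in hypoxia. Only the hypoxia libraries were all below the embryonic ones. Its log2 fold change was -0.74 ± 0.34 SE for hypoxia against the embryo (edgeR adjusted p = 0.153) and -0.17 ± 0.38 SE for hypoxia against normoxia (edgeR adjusted p = 0.940). Smad5 lies at chr13:56703010-56742377 (plus strand), and the overlapping RNA gene Gm27301 had 0 counts.

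The R-Smads summed per length were lower in every P12 library than in every embryonic one: 34.9 to 42.2 RPKM in the embryo, 27.7 and 19.5 RPKM in normoxia and 18.3 and 18.0 RPKM in hypoxia. Smad9 made 16.6% and 9.82% of that sum in normoxia and 0.102% and 0.0763% in hypoxia. Smad1 led Smad5 in 7 of 8 libraries, and Smad5 led in normoxia replicate 2 with 60.0% of the sum. These sums were not tested.

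Smad4, the partner shared by the BMP and TGF-beta branches, was the member with the clearest difference between ages. It had 242 and 214 CPM at E13, 227 and 249 CPM at E15, 18.1 and 24.1 CPM in normoxia, and 63.4 and 74.7 CPM in hypoxia. The 3 levels, embryo, hypoxia and normoxia, did not overlap in any library, and the E13 and E15 groups did. Smad4 fell from the embryo to normoxic P12 by 3.47 ± 0.31 SE on the log2 scale (edgeR adjusted p = 0.00153), in all 15 alternatives (highest adjusted p = 0.0187). It fell less far to hypoxic P12, by 1.76 ± 0.28 SE on the log2 scale (edgeR adjusted p = 0.00885), with the call lost without any 1 embryonic library and by limma-voom (adjusted p = 0.0916). The direct comparison tests that gap: Smad4 was higher in hypoxia than in normoxia by a log2 fold change of 1.71 ± 0.30 SE (edgeR adjusted p = 0.0476).

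That last call is close to the threshold. Its loss is not particular to Smad4 in limma-voom and the fit with only the P12 libraries, which called 0 of all tested genes. Nor is it without any 1 embryonic library, where calls were lost over the whole table. Without any 1 embryonic library the log2 fold change stayed at 1.71. The log2 fold change was 1.61 to 1.94 over the 15 alternatives, and 6 of them kept the call. The fits that lost it include limma-voom, the fit without the low-count filter, that with only the P12 libraries (adjusted p = 0.773, edgeR), and those without normoxia replicate 1 or without any 1 embryonic library. The Smad4 gene spans chr18:73639009-73703780 on the minus strand. Relative to the R-Smads, Smad4 made 57.8% to 64.9% of the per-length sum of Smad1, Smad4, Smad5 and Smad9 in the embryo, 14.9% and 25.0% in normoxia, and 48.2% and 52.7% in hypoxia.

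Smad7, the inhibitory Smad that acts on the BMP and TGF-beta branches, was higher in every P12 library than in every embryonic one. It had 6.42 and 9.98 CPM at E13, 9.42 and 9.76 CPM at E15, 68.1 and 42.7 CPM in normoxia, and 47.7 and 77.5 CPM in hypoxia. The P12 groups overlapped. Smad7 rose from the embryo to normoxic P12 by a log2 fold change of 2.64 ± 0.48 SE (edgeR adjusted p = 0.0180) and to hypoxic P12 by 2.82 ± 0.48 SE (edgeR adjusted p = 0.0111). Both calls were lost without any 1 embryonic library, and the normoxia call also without normoxia replicate 1 (highest adjusted p = 0.127). Between the P12 groups the log2 fold change was 0.18 ± 0.57 SE (edgeR adjusted p = 0.982). The Smad7 gene spans chr18:75367529-75395935 on the plus strand.

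Smad6, the inhibitor more specific to the BMP branch, gave no group difference that can be read, because the P12 libraries of each group disagreed. It had 3.70 and 4.49 CPM at E13, 13.3 and 11.7 CPM at E15, 18.2 and 2.41 CPM in normoxia, and 26.5 and 0.0370 CPM in hypoxia, the last from 1 count against 788 in the other hypoxia library. The embryonic libraries of a group agreed closely, and the E15 values lay above the E13 values. The E15-to-E13 log2 fold change was 1.61 ± 2.16 SE (edgeR adjusted p = 1), with an SE that carries the spread of the P12 libraries. The hypoxia-to-normoxia log2 fold change, 0.36 ± 2.11 SE (edgeR adjusted p = 1), was -7.94 without hypoxia replicate 1, -0.46 without normoxia replicate 2 and 2.58 without normoxia replicate 1, so its sign rests on which library is kept. Smad6 lies at chr9:63953076-64022059, minus strand.

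Per length, Smad6 was the larger inhibitory Smad at E15 (66.6% and 62.8% of the pair) and the smaller in all 6 other libraries, at 0.0673% to 44.9%. The inhibitory sum was 2.58 and 3.61 RPKM at E13, 6.23 and 5.80 RPKM at E15, 20.7 and 10.2 RPKM in normoxia and 18.8 and 17.1 RPKM in hypoxia. Set against the R-Smads, the log2 ratio of Smad6 plus Smad7 to Smad1, Smad5 and Smad9 was -3.77 and -3.55 at E13, -2.48 and -2.71 at E15, -0.42 and -0.94 in normoxia, and 0.04 and -0.07 in hypoxia. The ratio was higher at each step in the group order E13, E15, normoxia, hypoxia, with no overlap between groups. It was computed within each library and was not tested.

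**Figure D3:**
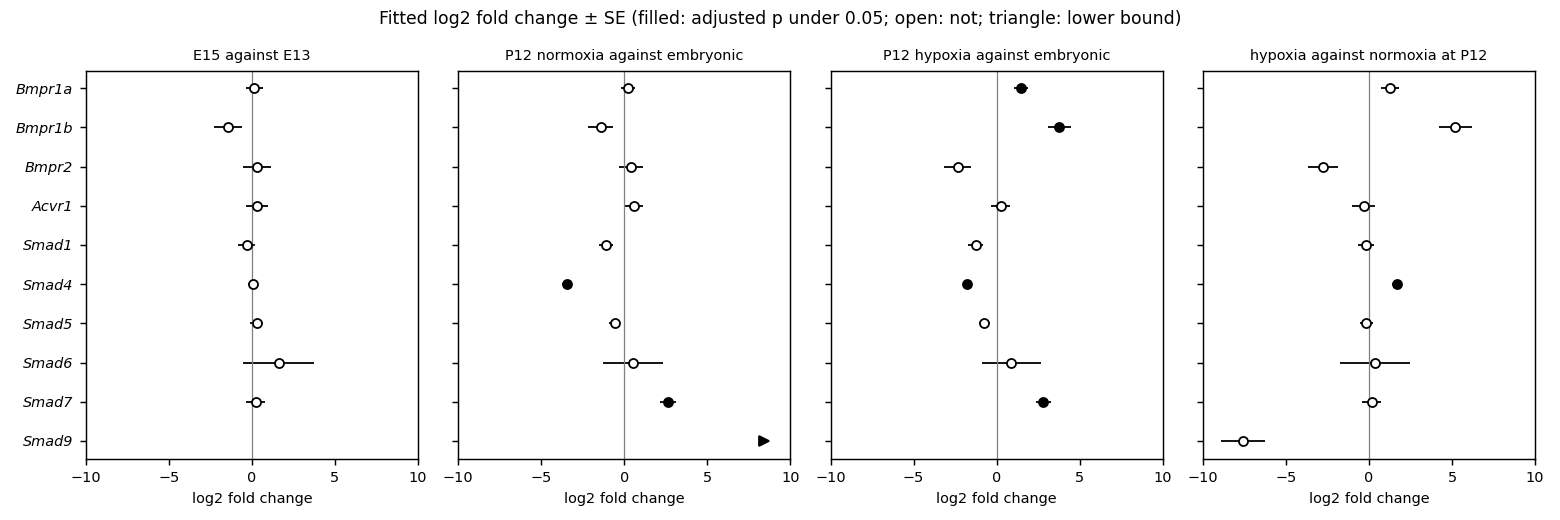
Fitted log2 fold change (horizontal axes) with its SE as bars for each gene (vertical axis) in 4 comparisons; filled points passed an adjusted p of 0.05, open points did not, and the triangle for Smad9 is the lower bound of 336-fold. Smad4 and Smad7 are filled on opposite sides of 0 in both comparisons of P12 with the embryo, and every point of E15 against E13 is open.

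Counted over the comparisons, most calls among the members were between ages. E15 against E13 called 0 of 9 members with a value in either direction by edgeR, with 0 at an unadjusted p under 0.05, and 0 by DESeq2 and limma-voom. Over all tested genes edgeR called 0% higher and 0% lower there, with 690 genes at an unadjusted p under 0.05, and DESeq2 called 374 and limma-voom 935. The edgeR fit carries the wider spread of the P12 libraries into this comparison. With only the E13 and E15 libraries edgeR called 229 genes and 0 members, with adjusted p = 0.0614 for Smad6 and 0.0786 for Bmpr1b. The E15 values lay wholly above the E13 values for Smad6 and wholly below them for Bmpr1b and Smad1, beside a background of 23.6% and 25.8% of all tested genes. That is the share of the background and no result about the members.

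Normoxic P12 against the embryo called 2 of 10 members higher (Smad7, and Smad9, which was testable only through its normoxia counts) and 1 lower (Smad4), beside 12.1% and 5.68% of all tested genes. Those counts are near what the whole table shows. Libraries did not overlap for 2 members above the embryo (Smad7 and Smad9) and 3 below it (Smad4, Smad1 and Bmpr1b), beside 27.3% and 32.1%. The median log2 fold change of the members was 0.32, and of all tested genes -0.04.

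Hypoxic P12 against the embryo, which shares its 4 embryonic libraries with the comparison before, called 3 of 9 members higher (Bmpr1a, Bmpr1b and Smad7) and 1 lower (Smad4), beside 13.2% and 12.9%. Smad9 was left out of this count because both sides were at or under the floor. No overlap was seen for 3 members above and 4 below the embryo (Bmpr2, Smad1, Smad4 and Smad5), beside 21.3% and 36.3%. The median of all tested genes was -0.43 here and moved to -0.22 with another scaling (RLE), so the members are also given relative to it. Read so, Bmpr1b stood 4.21, Smad7 3.24 and Bmpr1a 1.91 above the median of all genes on the log2 scale, and Smad4 stood at -1.33. With RLE scaling these differences were 4.14, 3.27, 1.90 and -1.32.

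Hypoxia against normoxia called 1 of 10 members higher (Smad4) and 0 lower, beside 0.196% and 2.82% of all tested genes. The genes called in this comparison were 39 higher and 563 lower, so Smad4 belongs to the small set that was higher. Bmpr1a, Bmpr1b and Smad4 were higher and Bmpr2 and Smad9 lower without overlap, beside 13.1% and 20.1%. At an unadjusted p under 0.05 there were 5 members, beside 3632 (18.2%) of all tested genes. DESeq2 called 5 members (3 higher and 2 lower) beside 3981 of all genes, and limma-voom 0 beside 0. Smad9, testable only through its normoxia counts, is among the 5 members at an unadjusted p under 0.05 and the 2 DESeq2 calls lower. The same limit applies to its place among the members lower without overlap. The replicate gaps limit this comparison: the absolute log2 difference between the 2 libraries of a group had a median over the members of 1.06 in normoxia and 0.62 in hypoxia, against 0.28 at E13 and 0.15 at E15. For all tested genes that median was 0.67, 0.63, 0.19 and 0.17. The spread in the fit is shared by all libraries, so the p-values of this comparison also draw on the closer embryonic pairs. With only the P12 libraries in the fit, 0 of all tested genes were called.

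Glial markers moved with the same groups. All 7 astrocyte markers and all 5 oligodendrocyte progenitor markers were higher in both P12 groups than in the embryo, without overlap. Over all tested genes 27.3% lay so above the embryo in normoxia and 21.3% in hypoxia, and 13.1% lay so above normoxia in hypoxia. The oligodendrocyte progenitor list summed to 0.0321 to 2.22 CPM in the embryo, 251 and 202 CPM in normoxia and 522 and 768 CPM in hypoxia, with Pdgfra, Olig1 and Olig2 higher in both hypoxia libraries than in both normoxia ones. The other 2 genes of that list overlapped: Cspg4 had 34.9 and 21.1 CPM in normoxia and 3.87 and 21.4 CPM in hypoxia, and Sox10 had 49.8 and 48.7 CPM and 93.9 and 20.9 CPM. The oligodendrocyte list summed to 201 and 572 CPM in normoxia and 1157 and 1969 CPM in hypoxia. For astrocytes the sums were 7826 and 8751 CPM in normoxia and 10295 and 8255 CPM in hypoxia. The part of these cells in the differences of Bmpr1a, Bmpr1b, Smad4 and Smad7 was not tested.

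Endothelial and microglial markers were low at P12, and a mural marker was high. The 6 endothelial markers summed to 0 to 2.39 CPM, and Cldn5, Pecam1, Cdh5, Kdr and Tek had at most 3 counts in each P12 library. The microglial list summed to 0 to 21.2 CPM, all of the highest value being P2ry12 in normoxia replicate 2. The mural and fibroblast list summed to 1026 to 2525 CPM at P12, nearly all of it Rgs5 (1021 to 2501 CPM, 0 in the embryo). Pdgfrb, a pericyte receptor, had 21.9 and 72.0 CPM in normoxia, 34.5 and 0.629 CPM in hypoxia and 0 to 2.37 CPM in the embryo, and Acta2 had 0.0652 to 1.11 CPM at P12. The part of mural cells in the differences of the members was not tested.

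Other genes of the pathway were read from lists of known members. Of 8 tested genes of the BMP ligand list, out of 15 listed, normoxic P12 called 4 higher and hypoxic P12 called 3 higher than the embryo, with 0 lower. Hypoxia against normoxia called 0. The tested genes include Bmp1, which encodes a protease and no ligand despite its name, and which was not called. Ligands near 0 in the embryo, such as Bmp4, Bmp6 and Gdf10, passed the low-count filter only through P12 libraries and so had to be higher there. The same holds for genes near 0 in the embryo in the lists that follow, and the counts are a description. For this list and the others, 12.1% of all tested genes were called higher and 5.68% lower in normoxic P12. In hypoxic P12 these shares were 13.2% and 12.9%, and in hypoxia against normoxia 0.196% and 2.82%. Bmp4, a ligand known to drive astrocyte formation, had 0 to 0.0356 CPM in the embryo, 26.9 and 20.8 CPM in normoxia and 127 and 290.2 CPM in hypoxia. Bmp4 was called higher in both P12 groups (edgeR adjusted p = 0.00386 and 0.00195), calls that add no support because the filter fixed their direction. Gdf11, a ligand that signals through the activin branch of Smads, rose by 4.94 ± 0.55 SE and 4.72 ± 0.55 SE on the log2 scale (edgeR adjusted p = 0.00346 and 0.00304). The Gdf11 calls held in all 15 alternatives, as did those of Bmp4, whose direction the filter fixed. The other calls were Bmp6 in both groups and Gdf10 in normoxia, and in hypoxia Bmp6 had 67.8 and 0.666 CPM. Leaving out any 1 embryonic library ended the Bmp6 and Gdf10 calls.

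Secreted inhibitors rose in part. Of 10 tested, 4 were called higher in each P12 group and 0 lower, beside 12.1% higher in normoxia and 13.2% in hypoxia of all tested genes. Fstl1, a follistatin-like glycoprotein, had 11.7 to 22.0 CPM in the embryo and 238 to 411 CPM at P12, a log2 fold change of 4.32 ± 0.37 SE in normoxia and 4.11 ± 0.37 SE in hypoxia (edgeR adjusted p = 0.00142 and 0.00141). Bmper, a secreted BMP-binding modulator, was called in hypoxia (4.28 ± 0.81 SE, edgeR adjusted p = 0.0157), with 61.7 and 101.4 CPM there against 3.49 and 14.7 CPM in normoxia and 0.891 to 12.8 CPM in the embryo. Htra1 and Nbl1 were called in both groups and Chrdl1 in normoxia. Of these calls those of Fstl1 held in all 15 alternatives, and the others were lost without 2 or more of the embryonic libraries, each left out singly. Hypoxia against normoxia called 0 of the 10.

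Among the coreceptors 1 gene differed between the P12 groups. Rgmb (DRAGON), a membrane-anchored BMP coreceptor, had 303 and 278 CPM at E13, 202 and 208 CPM at E15, 56.0 and 34.5 CPM in normoxia, and 0.303 and 0.518 CPM in hypoxia. The fit put hypoxia below normoxia at -6.78 ± 0.50 SE on the log2 scale (edgeR adjusted p = 0.0183). That call held in 8 of 15 alternatives and was lost by limma-voom, with only the P12 libraries in the fit and without any 1 embryonic library (highest adjusted p = 0.386). Those fits lost calls over the whole table, so the loss is not particular to Rgmb. The log2 fold change was -7.22 to -6.16 over the 15. Against the embryo in hypoxia the Rgmb call held in all 15. Its relative Rgma rose from the embryo in both P12 groups, by 4.87 ± 0.92 SE and 5.19 ± 0.93 SE on the log2 scale (edgeR adjusted p = 0.0202 and 0.0130). Bambi, a kinase-less pseudoreceptor that dampens signalling, rose by 4.34 ± 0.63 SE and 3.75 ± 0.62 SE (edgeR adjusted p = 0.00854 and 0.0102). The Bambi and Rgma calls were lost without some or all single embryonic libraries (highest adjusted p = 0.122), and the Rgma normoxia call also without normoxia replicate 2. Eng, an endothelial coreceptor, had 0.305 to 1.27 CPM in the embryo and 0 counts at P12, and was called lower in both groups, and Tgfbr3 was called higher in hypoxia. Each of these Eng and Tgfbr3 calls was lost in 10 of 15 alternatives. Eng passed the low-count filter only through embryonic libraries and so had to be lower at P12. Of the 6 genes, normoxic P12 called 2 higher and 2 lower, hypoxic P12 called 3 higher and 2 lower, and hypoxia against normoxia called 1 lower.

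Among 6 tested receptors of the wider family, Acvr1b (ALK4, an activin receptor) was the 1 gene called between the P12 groups. It had 8.58 to 11.04 CPM in the embryo, 20.8 and 40.9 CPM in normoxia, and 0.168 and 0.148 CPM in hypoxia, a log2 fold change of -7.58 ± 0.92 SE (edgeR adjusted p = 0.0232). That call, like the one of Rgmb, held in 8 of 15 alternatives and was lost by limma-voom, with only the P12 libraries and without any 1 embryonic library, with a range of -7.79 to -7.01. As for Rgmb, those fits lost calls over the whole table. Against the embryo the list called 0 higher and 1 lower in normoxia, and 0 higher and 2 lower in hypoxia, with Tgfbr2 lower in both and Acvr1b in hypoxia. The Tgfbr2 call was lost in 8 of 15 alternatives in normoxia and in 10 in hypoxia. Tgfbr2 had 0 to 0.0370 CPM at P12, passed the low-count filter only through embryonic libraries and so had to be lower at P12. Of Smad2 and Smad3, the R-Smads of the TGF-beta and activin branch, 0 were called. Smad2 had 107 to 140 CPM in the embryo, 11.5 and 41.1 CPM in normoxia, and 50.5 and 82.7 CPM in hypoxia, with every P12 library below every embryonic one.

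The 14 intracellular inhibitors had 4 called higher in normoxia, 3 higher in hypoxia and 0 lower, of which Ctdsp1 held in all 15 alternatives in both groups and Ppm1a, Ctdspl and Ski were lost in 7 to 9. Skil (SnoN), a corepressor that binds Smads, rose by 3.35 ± 0.49 SE and 3.14 ± 0.49 SE (edgeR adjusted p = 0.00885 and 0.00837), calls lost without any 1 embryonic library, and in normoxia without normoxia replicate 1. Ctdsp1, a small phosphatase that can dephosphorylate Smads, rose by 5.17 ± 0.55 SE and 6.45 ± 0.57 SE (edgeR adjusted p = 0.00287 and 0.00134). Ctdspl and Ppm1a were the other calls in normoxia, and Ski the other in hypoxia. Smurf1 and Smurf2, ubiquitin ligases for Smads and receptors, were not called.

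Target genes of the pathway moved both ways. Of 14 tested, normoxic P12 called 7 higher and 1 lower, beside 12.1% and 5.68% of all tested genes. Hypoxic P12 called 6 higher, 1 of them Smad9 on its 3 and 2 counts, and 1 lower, beside 13.2% and 12.9%. The list includes Smad6, Smad7, Smad9 and Bambi, described above. Id4, an inhibitor of basic helix-loop-helix factors, had 39.8 to 62.0 CPM in the embryo and 796 to 1628 CPM at P12, a rise of 4.68 ± 0.29 SE in normoxia and 4.31 ± 0.29 SE in hypoxia (edgeR adjusted p = 0.000486 and 0.000572). Id3, of the same family, rose by 5.70 ± 0.75 SE and 5.12 ± 0.74 SE (edgeR adjusted p = 0.00629 and 0.00637). Id2 went the other way, from 224 to 442 CPM in the embryo to 17.3 to 67.6 CPM at P12 (log2 fold change -2.94 ± 0.62 SE in normoxia and -2.72 ± 0.62 SE in hypoxia, edgeR adjusted p = 0.0292 and 0.0266). Zfp423, a zinc finger partner of Smads, rose by 1.82 ± 0.25 SE and 2.61 ± 0.25 SE (edgeR adjusted p = 0.00694 and 0.00163), and Msx1 was called higher in normoxia. The Id4 calls held in all 15 alternatives, and the Msx1 call was lost in 8 of them. The Id2 calls were lost without any 1 embryonic library and by limma-voom, in hypoxia also without either hypoxia library, and the Id3 calls without either E15 library. Id2, Msx1 and Tgfbr3 were named after their values were seen. Between the P12 groups 0 of 14 targets were called, and E15 against E13 called 0 genes in all of these lists.

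**Figure D4:**
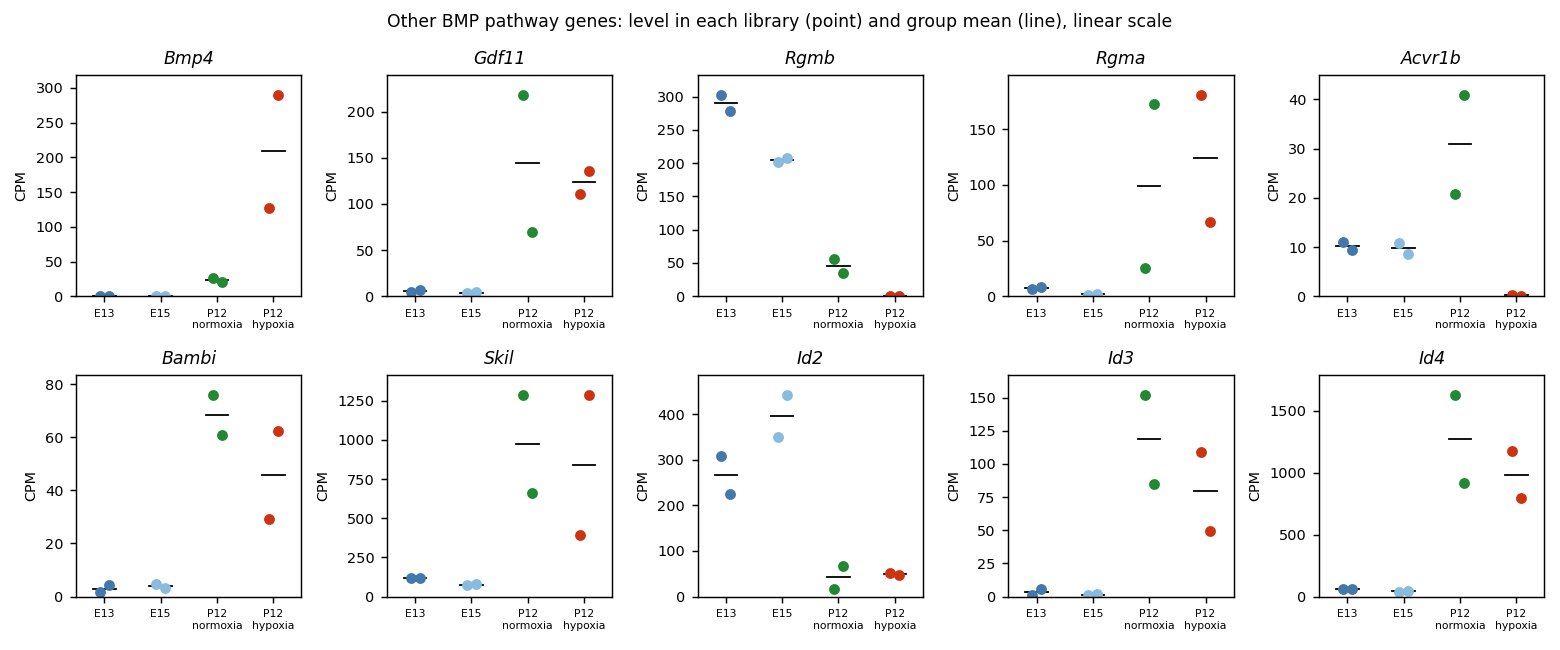
Level in CPM (vertical axes, linear, each with its own range) of 10 other pathway genes in the 8 libraries by group (horizontal axis); points are libraries and lines are means of 2, and the genes were picked for display after their values were seen. Rgmb and Acvr1b are under 1 CPM in both hypoxia libraries, Bmp4 is highest there, and Id2 is lower at P12 while Id3 and Id4 are higher.

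The genes most like each member were found by Pearson's r of log2(CPM + 1) over the 8 libraries, among 9359 genes with a mean of at least 10 CPM. All points come from the same 8 libraries and mostly separate embryo from P12, so r describes these libraries and no p is given. Smad4 was followed most closely by Mis12 (r = 0.998), Coro1b (r = 0.997) and Slc39a6 (r = 0.993). Mis12 had 64.1 to 69.3 CPM in the embryo, 7.78 and 9.65 CPM in normoxia, and 22.2 and 23.7 CPM in hypoxia, the same 3 steps as Smad4. Smad7 was most like Amt, Khk and Gng12 (r = 0.997, 0.995 and 0.995). Smad9 was most like Grin2a, Cx3cl1 and Spock3 (r = 0.995, 0.993 and 0.992). Grin2a, an NMDA receptor subunit, had 365 and 192.5 CPM in normoxia, 0 and 0.0740 CPM in hypoxia, and 0 CPM in the embryo.

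For the receptors the closest genes were Aph1a for Bmpr1a (r = 0.977), Elovl2 for Bmpr1b (r = 0.964), Nom1 for Bmpr2 (r = 0.965) and Gt(ROSA)26Sor for Acvr1 (r = 0.927). Elovl2, a fatty acid elongase, had 83.0 to 115 CPM in the embryo, 63.3 and 92.3 CPM in normoxia, and 325 and 191 CPM in hypoxia. Nom1 had 7.53 and 0.111 CPM in hypoxia and 26.9 to 55.9 CPM in the other 6 libraries. For the remaining Smads they were Zswim4 for Smad1 (r = 0.979), Palmd for Smad5 (r = 0.969) and Zfp93 for Smad6 (r = 0.988).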

How the data were processed

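RNA-seq libraries of sorted mouse brain cells were analysed from the count tables the authors deposited, 1 per library. Per the submitters' processing notes, reads were handled with cutadapt, STAR and Subread on GRCm38. Versions, annotation release, strand setting and treatment of multimapping reads are not given in the sources used here. Of 55487 rows a file, 1980 named no gene (0.205% to 0.266% of counts) and were removed. Another 14 rows bore dates and were kept unnamed. Libraries held 36252027 to 47084796 counts, and 3 counts corresponded to 0.0482 to 0.111 CPM.

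Counts were scaled by TMM, filtered with filterByExpr (minimum count 10, minimum total 15) and fitted over all 8 libraries with edgeR 4.0.16 in R 4.3.3 (glmQLFit, glmQLFTest, 4 residual degrees of freedom, two-sided). P-values were adjusted by Benjamini and Hochberg over 19936 genes, with a threshold of 0.05. The SE of a log2 fold change came from the F statistic. "Embryonic" is the mean of E13 and E15. RPKM used the union exon length of GENCODE M21, and levels of different genes were compared only on that scale. DESeq2 1.42.0 and limma 3.58.1 gave alternatives, 15 in all. The fitting script was tested on simulated data. Python 3.11.15 with pandas 2.3.3, numpy 2.4.6, scipy 1.17.1 and matplotlib 3.10.9 made the descriptions.

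The members and gene lists were chosen with earlier results of these data known. Named were all 10 members, at most 4 called genes per list and comparison by smallest p, and the 3 genes most like each member, of which some are printed. Titles number the replicates, and numbers on the P12 files differ from them. Same-numbered libraries did not deviate together (r of -0.044 to 0.014 over 6 pairs of groups), so no pairing entered the fit.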

Additional observations from a re-analysis of the deposited data

How the results depend on the processing

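Over 15 alternatives the count of members called in hypoxia against normoxia, 1 as reported, was 5 with DESeq2, 2 with the filter of 5 CPM, and 0 with limma-voom, without the low-count filter, with the replicate block or with only the compared groups. Leaving out 1 library gave 0 to 2. For hypoxic P12 against the embryo, 4 as reported, it was 2 with limma-voom and 0 to 5 when 1 library was left out, 0 without any 1 embryonic library. Normoxic P12 against the embryo gave 2 to 4 members, and E15 against E13 gave 0 throughout. Genes called over the whole table in hypoxia against normoxia, 602 as reported, were 3981 with DESeq2, 0 with limma-voom, 459 with RLE scaling, 295 without the filter, 742 with the filter of 5 CPM, 1 with the replicate block, 0 with only the compared groups and 0 to 3018 when 1 library was left out. In normoxic P12 against the embryo the 3541 became 7252 with DESeq2, 1705 with the replicate block and 928 to 5990 when 1 library was left out. In hypoxic P12 against the embryo the 5208 became 9001 with DESeq2, 2390 with limma-voom, 2868 with the replicate block and 1562 to 6836 when 1 library was left out. In E15 against E13 only the compared groups gave 229 genes. The replicate numbers name no pairs, so the replicate block is a check on a shared number only. Under it Smad4 lost its hypoxia call (adjusted p = 0.134), as Smad7 did its normoxia call (adjusted p = 0.0522), Bmpr1a its hypoxia call against the embryo (adjusted p = 0.0866), and Rgmb and Acvr1b theirs in hypoxia against normoxia.

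Directions turned for values that had not passed the test on all 8 libraries. Smad5 in hypoxia against normoxia was 0.038 with DESeq2 and with RLE scaling. Smad6 was -2.182 with limma-voom and -0.093 with the replicate block in hypoxia against normoxia, -0.084 and -0.412 in normoxic P12 against the embryo, and -2.266 and -0.505 in hypoxic P12 against the embryo. Leaving out 1 library gave, in hypoxia against normoxia, -0.816 to 0.635 for Acvr1, -0.696 to 0.911 for Smad1, -0.232 to 0.175 for Smad5, -7.936 to 2.583 for Smad6 and -0.227 to 0.786 for Smad7. In E15 against E13 the ranges were -0.046 to 0.322 for Bmpr1a, -0.206 to 1.058 for Bmpr2, -0.023 to 0.162 for Smad4 and -0.05 to 0.576 for Smad7. In normoxic P12 against the embryo they were -0.484 to 0.558 for Bmpr1a, -0.159 to 0.792 for Bmpr2, -0.299 to 1.053 for Acvr1 and -1.706 to 1.348 for Smad6. In hypoxic P12 against the embryo they were -0.148 to 0.539 for Acvr1 and -7.49 to 1.874 for Smad6, whose lowest value, without hypoxia replicate 1, passed (adjusted p = 0.0429). A group left with 1 library was assumed to vary like the others, and the cause of these shifts was not tested.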

Other observations

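Several pathway genes, like many genes of the whole table, were present in 1 library of a P12 group and nearly absent in the other. Taking at least 10 CPM in 1 library and under 1 CPM in the other, a rule chosen after the values were seen, this held for 10 of the 66 tested members and listed pathway genes in hypoxia (Bmp3, Bmp6, Bmp7, Chrd, Dand5, Id1, Msx1, Nog, Smad6 and Smurf1) and for 15.1% of all tested genes. In normoxia it held for 4 of 66 (Bmp3, Gdf10, Nog and Tgif1) and for 8.17% of all tested genes, and at E13 and E15 for 0 of 66. These counts are near the share of all tested genes and are no result about the pathway. Bmp7, a BMP ligand, had 95.9 and 0.666 CPM in hypoxia, 21.1 and 26.9 CPM in normoxia and 1.11 to 8.16 CPM in the embryo. Nog, the secreted BMP antagonist Noggin, had 37.0 and 0.0740 CPM in hypoxia, 52.6 and 0.0326 CPM in normoxia and 0.197 to 1.19 CPM in the embryo. Chrd, the antagonist Chordin, had 57.9 and 0.148 CPM in hypoxia and 0.0953 and 9.55 CPM in normoxia. None of these genes was called between the P12 groups by edgeR.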
